A study of Drosophila melanogaster with 18 samples.

Results

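The Rab GTPases are the Drosophila members of the Ras-like family of small GTPases that mark membrane compartments. Genes were taken from the count tables by their FlyBase symbol (Rab or RabX followed by a number, with or without a letter), which gave 33 of 17494 genes. Their exchange factors, GTPase-activating proteins and effectors were left out of this set and are described apart. Of the 33 genes, 13 lie on the X chromosome and 5 each on 2L, 2R, 3L and 3R (dm6).

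A Rab protein switches between a GTP-bound form, which sits on a membrane and recruits effectors that tether, move or fuse vesicles, and a GDP-bound form, which is drawn back into the cytosol. Exchange factors load GTP, and GTPase-activating proteins end the active state. In the larval fat body, the nutrient storage organ of the fly, Rab proteins serve the secretion of serum proteins, the uptake and storage of serum proteins before metamorphosis, and the meeting of autophagosomes and endosomes with lysosomes.

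Counts of RNA-seq reads were from the fat body of last-instar larvae, 6 groups with 2 libraries in each, and ChIP-seq peaks from S2-DRSC cells, a line derived from late embryos. The 8 male libraries were from the feeding stage (L3F), with the gonads removed, and all carried the fat body driver cgGal4 crossed to wild type (WT), to M1BP-RNAi, to HA::ZKSCAN3, or to M1BP-RNAi;HA::ZKSCAN3 (M1BP RNAi + ZKSCAN3, below also "with both"). The 4 female libraries were wild type, at the feeding (L3F) or the wandering stage (L3W), when developmental autophagy is under way. The labels do not say that gonads were removed from the females. M1BP is the fly transcription factor that binds Motif 1, a promoter element, and ZKSCAN3 and its relative ZKSCAN4 are vertebrate zinc finger factors. The comparisons address how the loss of M1BP changes transcription and how far ZKSCAN3 expression offsets it. The labels name an HA tag on the fly transgene, while the fly lines in the study's methods are myc-tagged, and the level of the vertebrate transgene was not measured in these tables of fly genes. The S2 cells were stable lines expressing HA::ZKSCAN3 or HA::ZKSCAN4 under copper induction, and 1 of the ChIP samples titled ZKSCAN3 carries the genotype label HA::ZKSCAN4. The libraries of a group were made from separate RNA preparations, and nothing says whether these came from separate crosses or cultures, so the p-values measure the spread between these libraries.

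Library totals were 53462739 to 76798943 counts in males and 58313885 to 74175081 in females. A gene without reads could have had up to 3 counts, which was 0.0305 to 0.0590 normalised CPM (counts scaled to a common library size with TMM factors), and this limit covers counting error only. M1BP itself had 6.57 and 7.02 CPM in M1BP RNAi and 8.25 and 8.52 CPM in M1BP RNAi + ZKSCAN3, against 15.7 and 16.98 CPM in WT. All 10 fat body markers were detected in all 12 libraries, and the 6 ovary and germline markers summed to 0.552 to 7.28 CPM. M1BP RNAi replicate 1 stood apart, with a summed 217 CPM over 20 testis markers and 18 of them at 1 CPM or more, against 5.20 to 41.0 CPM in the other male libraries. Female L3F replicate 2 held 63.4 CPM of the same testis markers and 997 CPM of the 10 salivary gland markers, against 4.85 and 70.8 CPM in replicate 1. In bulk samples, fewer cells of a type and less RNA per cell cannot be told apart.

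Of the 33 Rab genes, 22 were detected at 1 CPM or more in every male and every female library, and these were the same 22 genes. Rab3 was detected in only some male libraries, and Rab3, Rab23 and Rab27 in only some female libraries. In all 12 libraries 8 genes stayed under 1 CPM (Rab26, RabX2, RabX5, Rab9D, Rab9Db, Rab9E, Rab9Fa and Rab9Fb), and Rab23 and Rab27 did so in males. Levels between genes are compared on the scale of TPM, in which counts are divided by exon length and scaled to a common total.

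The Rab genes with the highest levels were Rab11, Rab7 and Rab1, with means of 224, 196 and 191 TPM over the 12 libraries. Rab11, the GTPase of recycling endosomes, had 196 and 202 TPM in WT, 214 and 194 with ZKSCAN3, 279 and 261 under M1BP RNAi, 232 and 200 with both, 178 and 177 in L3F, and 272 and 285 in L3W. Rab1, which acts between endoplasmic reticulum and Golgi, had 166 and 179 TPM in WT, 183 and 177 with ZKSCAN3, 227 and 224 under M1BP RNAi, 216 and 205 with both, 150 and 159 in L3F, and 197 and 205 in L3W. Rab11 and Rab1 therefore varied less than 2-fold between the highest and the lowest library, while Rab7, the late endosome and lysosome GTPase, ran from 87.2 to 390 TPM, with 141 and 153 TPM in WT. The ranges of the 3 genes overlapped, so their order differed between groups: Rab1 was above Rab7 in WT, and Rab7 was above both others in L3W. Next came Rab5 of early endosomes with a mean of 89.0 TPM, Rab32 with 83.7, Rab2 of the Golgi with 72.2, Rab10 with 61.3 and Rab6 with 58.4 TPM. Of the exonic bases of Rab1, 41.1% are shared with the opposite gene asRNA:CR45798, and of those of RabX6 36.2% with Vti1a. Strand was not used in the counting, so reads in these bases cannot be assigned to 1 of the genes.

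**Figure D1:**
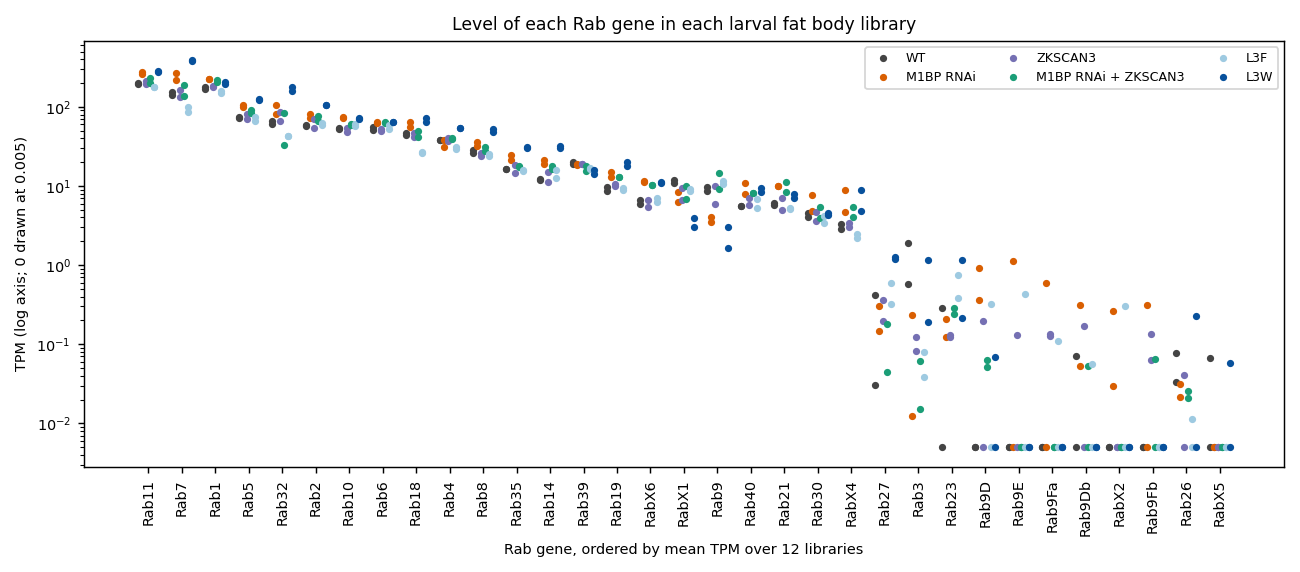
TPM on a log axis of the 33 Rab genes, ordered by their mean over 12 libraries, with 1 dot per library and colours for the 6 groups (libraries at 0 drawn at 0.005). Rab11, Rab7 and Rab1 lead with means of 224, 196 and 191 TPM, and a gap separates the 22 genes detected throughout from 11 genes with a mean under 1 TPM.

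The 33 Rab genes together took 1017 and 1053 TPM in WT, 991 and 1125 with ZKSCAN3, 1332 and 1486 under M1BP RNAi, 1099 and 1238 with both, 887 and 908 in L3F, and 1694 and 1729 in L3W. TPM moves with the most abundant transcripts, and the median of all genes tested rose on this scale too, by 0.54 on the log2 scale in M1BP RNAi against WT, by 0.45 in M1BP RNAi + ZKSCAN3 against WT and by 0.20 in L3W against L3F. Changes are therefore given from the TMM-scaled counts, as CPM and as log2 fold changes.

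Of the comparisons made, L3W against L3F gave the most Rab calls, as it gave the most calls over all genes. Rab7 and Rab32 passed a false discovery rate (FDR) of 0.001 in edgeR, both higher in L3W, which made 2 of 25 tested Rab genes against 4.27% of all 10720 genes tested. No Rab gene was lower in L3W at that rate, against 3.52% of all genes, and 3 had an unadjusted p under 0.05 in that direction. The share of all genes at that unadjusted p was not computed in any comparison, so such counts stand without a background. DESeq2 at an adjusted p of 0.001 called 11 of 32 Rab genes higher and 2 lower, against 12.1% and 12.8% of all genes fitted (genes left without an adjusted p included). At FDR 0.05 edgeR called 13 Rab genes higher against 23.3% of all genes, and 3 lower (Rab9, RabX1 and Rab39) against 24.7% of all genes. The median log2 fold change of the 25 Rab genes was 0.57, against -0.01 over all genes tested, and 20 of the 25 were positive, against 49.5% of all genes. Over the same comparison the fat body markers summed to 420990 and 438193 CPM in L3F and 274914 and 287584 CPM in L3W, the 10 muscle markers to 226 and 299 against 136 and 153 CPM, and the 10 midgut markers to 416 and 38.1 against 732 and 459 CPM, and their part in the Rab values was not tested.

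Rab7, which directs the fusion of late endosomes and autophagosomes with lysosomes, had 90.02 and 99.1 CPM in L3F and 338 and 332 CPM in L3W. Rab32, known in flies for lysosome-related pigment granules, had 107 and 105 CPM in L3F and 379 and 323 CPM in L3W. Both L3W libraries were above both L3F libraries for each gene, and replicates lay close together. Rab7 was 3.54-fold higher in L3W (log2 1.82, SE 0.09), with an FDR of 0.000655 in the quasi-likelihood test of edgeR after Benjamini-Hochberg adjustment. Rab32 was 3.31-fold higher (log2 1.73, SE 0.11, edgeR FDR 0.000957). With any 1 of the 4 female libraries left out, the log2 fold changes stayed at 1.77 to 1.88 for Rab7 and at 1.64 to 1.88 for Rab32. Neither gene then stayed under 0.001, but such a fit leaves 1 library in a group and called fewer genes of any kind. A call lost in it is therefore no limit particular to a gene.

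The genes grouped with late endosomes and lysosomes went in opposite directions. Rab9, known in mammals for the return of receptors from late endosomes to the Golgi, had 11.4 and 10.0 CPM in L3F and 1.37 and 2.40 CPM in L3W. RabX1, which acts in endosome and lysosome traffic in flies, had 8.56 and 8.90 CPM in L3F and 3.36 and 2.49 CPM in L3W. For both, the L3F and L3W libraries did not overlap. Rab9 was 5.65-fold lower in L3W (log2 -2.50, SE 0.32, edgeR FDR 0.00518), and RabX1 2.98-fold lower (log2 -1.58, SE 0.20, edgeR FDR 0.00529). Rab39, known in mammals for lysosomal and autophagic traffic, was lower by a smaller amount, with 14.2 and 13.9 CPM in L3F against 10.5 and 11.3 CPM in L3W (log2 -0.37, SE 0.11, edgeR FDR 0.0477). That call was lost whichever female library was left out (log2 -0.40 to -0.27), in fits that called fewer genes of any kind. Among the 5 genes placed in this group, then, 2 rose and 3 fell at FDR 0.05, against 23.3% and 24.7% of all genes. Levels in TPM ranged from 379 and 390 for Rab7 down to 1.63 and 2.99 for Rab9 in L3W.

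Early and recycling endosome genes rose in 5 of 6 cases at FDR 0.05, where 23.3% of all genes were called higher. Rab14, which acts between endosomes and Golgi, had 14.4 and 17.4 CPM in L3F against 31.2 and 28.3 in L3W (log2 0.90, SE 0.14, edgeR FDR 0.00890). Rab35, a recycling GTPase, rose 1.66-fold (edgeR FDR 0.00440), Rab4 rose 1.52-fold, from 25.1 and 23.2 to 37.5 and 36.0 CPM (edgeR FDR 0.0108), Rab5 rose by 0.58 on the log2 scale (edgeR FDR 0.00826), and Rab11 rose 1.34-fold (edgeR FDR 0.0143). Rab21 had a log2 fold change of 0.31 that did not pass (edgeR FDR 0.186). Only Rab35 kept its call with each female library left out in turn, in fits where calls over all genes fell too. In these fits the log2 fold changes ran from 0.78 to 1.03 for Rab14 and from 0.53 to 0.68 for Rab4. They ran from 0.54 to 0.65 for Rab5 and from 0.38 to 0.46 for Rab11.

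Of the 8 genes of the secretory pathway and Golgi, 4 rose at FDR 0.05 and none fell, against 23.3% and 24.7% of all genes. Rab18, known in mammals for lipid droplets and the endoplasmic reticulum, led them with 13.4 and 13.1 CPM in L3F and 28.2 and 29.9 CPM in L3W, 2.19-fold higher (log2 1.13, SE 0.10, edgeR FDR 0.00179). Rab19 and Rab8, both linked to traffic towards the cell surface, rose 1.77-fold and 1.74-fold (edgeR FDR 0.00957 and 0.00355), and Rab2 rose 1.49-fold (edgeR FDR 0.00776). Rab1, Rab6, Rab10 and Rab30 had log2 fold changes of 0.15, -0.05, 0.03 and -0.01 that did not pass. Only Rab18 kept its call with each female library left out in turn, in fits where calls over all genes fell too. In these fits the log2 fold changes ran from 0.74 to 0.92 for Rab19, from 0.56 to 0.66 for Rab2 and from 0.78 to 0.86 for Rab8.

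Among the other genes, RabX4 and RabX6 rose at FDR 0.05. RabX4 had 1.88 and 2.08 CPM in L3F and 3.57 and 6.36 CPM in L3W (log2 1.33, SE 0.34, edgeR FDR 0.0364), and 9.25% of its exonic bases are shared with Kaz on the same strand. Its call was lost without L3F replicate 1, L3F replicate 2 or L3W replicate 2, and its log2 fold change ran from 0.90 to 1.72 with 1 library left out. RabX6 had a log2 fold change of 0.53 (edgeR FDR 0.0443), a call that was lost whichever female library was left out (log2 0.42 to 0.64). Calls over all genes fell in these fits too.

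**Figure D2:**
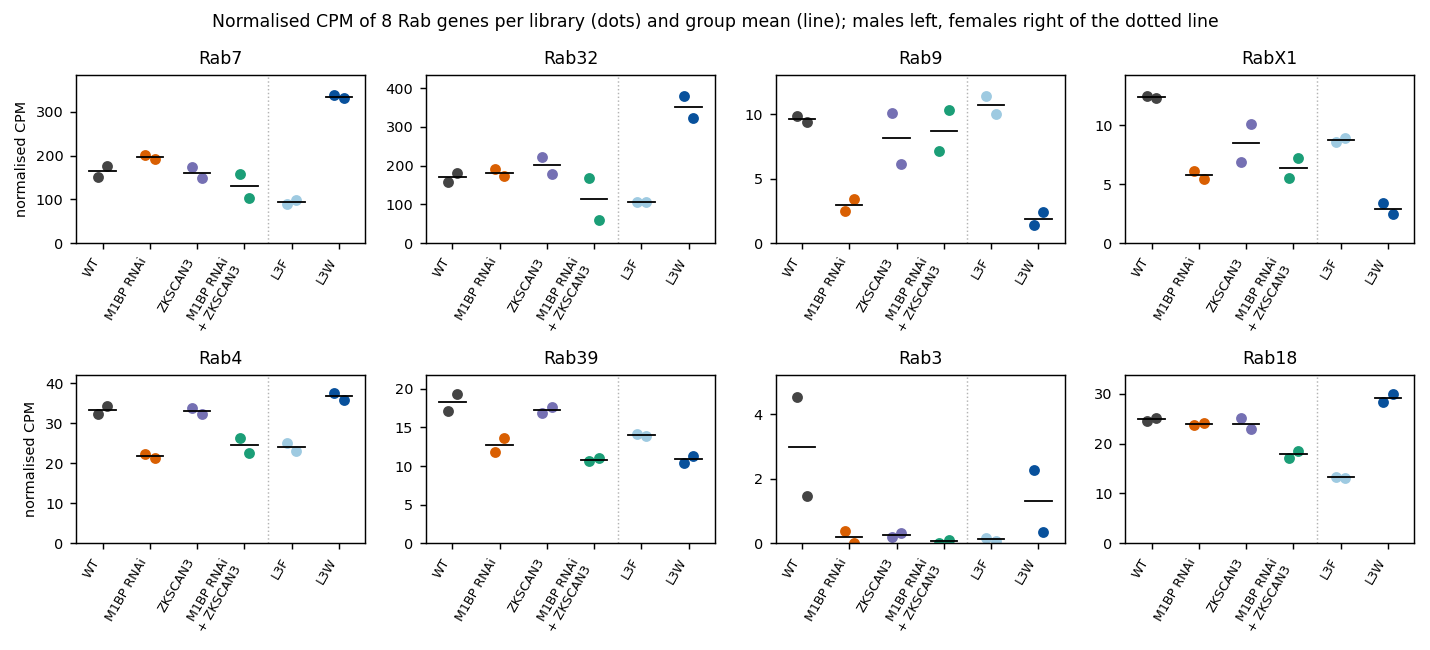
Normalised CPM of 8 Rab genes in each library (dots, 2 per group) with the group mean (line). Rab7 and Rab32 stand at 332 and 338 and at 323 and 379 CPM in L3W, above every other library, while Rab9 and RabX1 are low in both M1BP RNAi and L3W libraries.

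Among the male comparisons, M1BP RNAi against WT gave the most Rab calls at FDR 0.05, and all were decreases. The comparisons against WT share the 2 WT libraries. No Rab gene of 26 tested passed FDR 0.001 in edgeR for M1BP RNAi against WT, against 0.0341% of all 11723 genes, with 1 higher and 5 lower at an unadjusted p under 0.05. M1BP, the gene knocked down, did not pass 0.001 either (edgeR FDR 0.00776, and 0.0158 with both against WT). A missing call at that rate is therefore weak evidence of no change. DESeq2 called 3 of 33 Rab genes lower at 0.001, whether fitted on all libraries, where it called 3.39% of all genes fitted lower, or on the pair of groups, where it called 5.67%. At FDR 0.05 edgeR called Rab9, RabX1 and Rab4 lower, 3 of 26 against 4.29% of all genes, and no Rab gene higher, against 3.93% of all genes. The median over the 26 Rab genes was 0.01, against 0.11 over all genes tested, and it turned to -0.11 against 0.08 without M1BP RNAi replicate 2. The fat body markers summed to 239927 and 303278 CPM in M1BP RNAi against 401201 and 438873 CPM in WT, the muscle markers to 153 and 232 against 467 and 579 CPM, the midgut markers to 554 and 301 against 137 and 127 CPM, and the salivary gland markers to 607 and 36.4 against 14.8 and 7.63 CPM. Their part in the Rab values was not tested.

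Rab9 had 9.82 and 9.37 CPM in WT, 10.1 and 6.15 with ZKSCAN3, 2.51 and 3.43 under M1BP RNAi, and 7.14 and 10.3 with both. The M1BP RNAi libraries were the lowest of the 8 and did not overlap with any other group. Rab9 was 3.22-fold lower in M1BP RNAi than in WT (log2 -1.69, SE 0.32, edgeR FDR 0.0311). The log2 fold change was -1.48 without M1BP RNAi replicate 1, the library high in testis markers. Without WT replicate 1 and 2 it was -1.65 and -1.72. The call was lost in these fits, which leave 1 library in a group and in which calls over all genes fell too. Against M1BP RNAi, Rab9 was 2.93-fold higher in M1BP RNAi + ZKSCAN3 (log2 1.55, SE 0.32), which did not pass in edgeR (FDR 0.134) and passed 0.05 in DESeq2 with all libraries (adjusted p 0.00144) and with the pair of groups alone (adjusted p 0.0132). The interaction of ZKSCAN3 with M1BP RNAi was 1.79 for Rab9 on the log2 scale (edgeR FDR 0.279). The start of Rab9 is at position 19432574 of chromosome arm 2L, on the plus strand, and no other gene shares its exonic bases.

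RabX1 had 12.5 and 12.3 CPM in WT, 6.88 and 10.1 with ZKSCAN3, 6.14 and 5.42 under M1BP RNAi, and 5.51 and 7.21 with both. WT held the highest libraries, the groups with M1BP RNAi overlapped each other, and the lower ZKSCAN3 library lay within the range of M1BP RNAi + ZKSCAN3. RabX1 was 2.14-fold lower in M1BP RNAi than in WT (log2 -1.10, SE 0.24, edgeR FDR 0.0443). With 1 male library left out its log2 fold change ran from -1.19 to -1.09. The call was lost without either WT library or either M1BP RNAi library. Calls over all genes fell too in these fits, except in the fit without M1BP RNAi replicate 2. In M1BP RNAi + ZKSCAN3 against WT, RabX1 had a log2 fold change of -0.96 that did not pass (edgeR FDR 0.0694).

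Rab4, which recycles cargo from early endosomes, had 32.2 and 34.4 CPM in WT, 33.9 and 32.3 with ZKSCAN3, 22.4 and 21.3 under M1BP RNAi, and 26.3 and 22.6 with both. In CPM, all male libraries with M1BP RNAi were below all male libraries without it. In TPM they overlapped, with 38.4 and 31.1 TPM under M1BP RNAi and 40.7 and 38.9 with both against 38.6 and 38.6 in WT and 40.6 and 37.6 with ZKSCAN3. Rab4 was 1.53-fold lower in M1BP RNAi (log2 -0.61, SE 0.13, edgeR FDR 0.0438), a call that was lost with no filter on low counts (edgeR FDR 0.0671). It was also lost without any 1 WT, M1BP RNAi or ZKSCAN3 library, and calls over all genes fell in most of these fits. With 1 male library left out, the log2 fold change of Rab4 stayed at -0.67 to -0.56. At L3W the same gene was higher than at L3F, so its direction differed between the knockdown and the wandering stage, a difference that was not tested.

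Rab39 had 17.1 and 19.4 CPM in WT, 16.8 and 17.6 with ZKSCAN3, 11.8 and 13.6 under M1BP RNAi, and 10.6 and 11.1 with both. In CPM it too was lower in every male library with M1BP RNAi than in every male library without. In TPM, M1BP RNAi replicate 1 (18.96) was above ZKSCAN3 replicate 1 (18.87). In M1BP RNAi + ZKSCAN3 against WT, Rab39 was 1.68-fold lower (log2 -0.75, SE 0.14, edgeR FDR 0.0330), and in M1BP RNAi against WT it had a log2 fold change of -0.52 (edgeR FDR 0.0693). The call was lost with any 1 of the 8 male libraries left out (log2 -0.83 to -0.65). Calls over all genes fell in most of these fits.

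Rab7 and Rab32, the genes that rose at L3W, did not pass in any male comparison. Rab7 had 152 and 176 CPM in WT, 174 and 148 with ZKSCAN3, 201 and 192 under M1BP RNAi, and 159 and 103 with both. Rab32 had 159 and 181 CPM in WT, 223 and 177 with ZKSCAN3, 190 and 173 under M1BP RNAi, and 167 and 59.5 with both. The CPM of Rab32 differed more between the 2 libraries of M1BP RNAi + ZKSCAN3 than between the means of any male groups. Against WT, Rab7 in M1BP RNAi had a log2 fold change of 0.26 (SE 0.23, edgeR FDR 0.465) and Rab32 of 0.10 (SE 0.44, edgeR FDR 0.898).

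For ZKSCAN3 alone against WT, edgeR called 0 of 26 Rab genes at FDR 0.001 (0% of all genes) and 0 at FDR 0.05 (0% of all genes), with Rab3 the 1 gene at an unadjusted p under 0.05. DESeq2 called none with all libraries and 1 of 32, Rab3, with the pair of groups alone, against 0.059% of all genes fitted that were lower. The median log2 fold change was -0.02 for the Rab genes and -0.02 over all genes.

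For M1BP RNAi + ZKSCAN3 against WT, edgeR called 0 Rab genes at FDR 0.001 (0% of all genes). At an unadjusted p under 0.05, 7 were lower and none higher, and the share of all genes at that p was not computed. DESeq2 called 2 of 33 lower with all libraries and 1 of 30 with the pair of groups alone, against 2.46% and 2.6% of all genes fitted. At FDR 0.05 Rab39, lower, was the 1 call, against 3.02% of all genes called lower and 3.23% called higher. The median over the Rab genes was -0.27 against 0.01 over all genes, and 8 of 26 were positive, against 51.0% of all genes. Without M1BP RNAi + ZKSCAN3 replicate 2 it was -0.14 against 0.02. On the TPM scale the same median was 0.22 against 0.45, so the sign of the median depended on the scaling, and in both the Rab genes lay below all genes, by 0.29 and 0.23. The 10 hemocyte markers moved in the same libraries, summing to 254 and 390 CPM in M1BP RNAi + ZKSCAN3 against 1332 and 1621 CPM in WT, with none at 0, and the fat body markers summed to 190840 and 287960 against 401201 and 438873 CPM in WT. The salivary gland markers summed to 584 and 813 CPM and the muscle markers to 176 and 257 CPM, against 7.63 and 14.8 and 467 and 579 CPM in WT. Their part in the Rab values was not tested.

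Against M1BP RNAi, the M1BP RNAi + ZKSCAN3 libraries gave 0 Rab calls at FDR 0.001 in edgeR (0% of all genes) and 0 at FDR 0.05 (0.281% of all genes), with 1 higher (Rab9) and 3 lower at an unadjusted p under 0.05. DESeq2 called none at 0.001. The median was -0.26 against -0.08 over all genes, -0.15 against -0.04 without M1BP RNAi replicate 2, and -0.11 against -0.05 without M1BP RNAi + ZKSCAN3 replicate 2. The hemocyte markers summed to 390 and 254 CPM in M1BP RNAi + ZKSCAN3 against 1727 and 1194 CPM in M1BP RNAi, the testis markers to 10.2 and 8.85 against 217 and 9.09 CPM, and the salivary gland markers to 584 and 813 against 607 and 36.4 CPM, and their part in the Rab values was not tested. The interaction gave 0 Rab calls at either rate in edgeR (0% and 0.0256% of all genes), with 1 Rab gene in each direction at an unadjusted p under 0.05 and none in DESeq2 at 0.001, and its median was -0.26 against -0.06. That median was -0.14 without M1BP RNAi replicate 2 (all genes 0.0092) and -0.14 without M1BP RNAi + ZKSCAN3 replicate 2 (all genes -0.05).

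**Figure D3:**
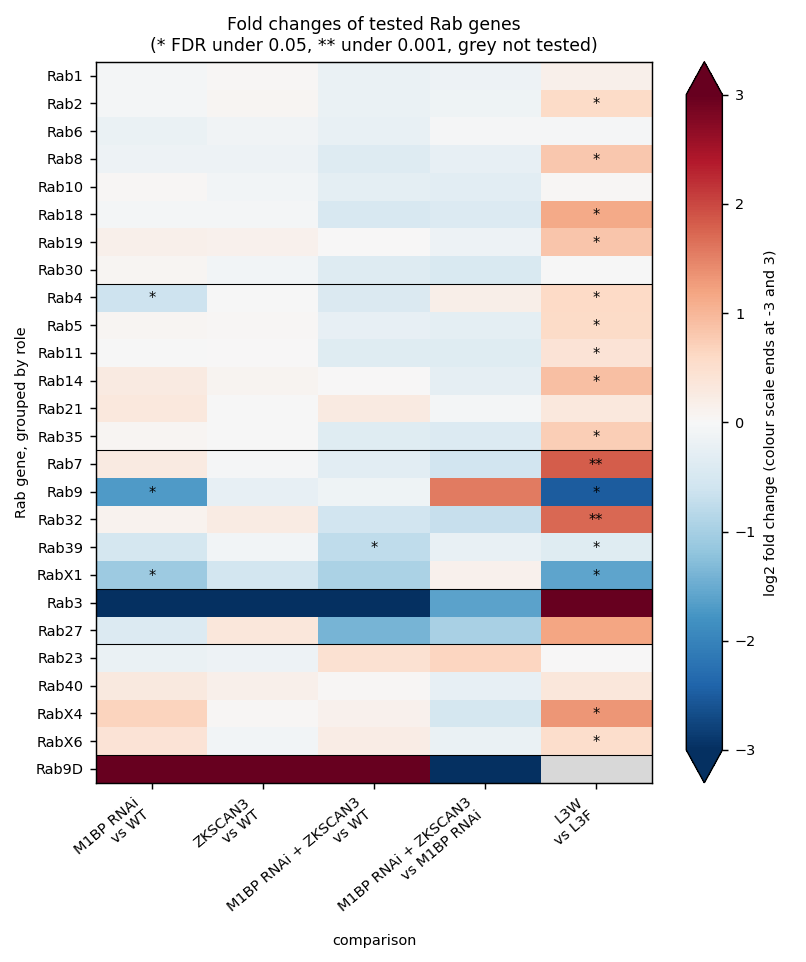
Log2 fold change of the 26 tested Rab genes (rows, grouped by role) in 5 comparisons (columns), with * for edgeR FDR under 0.05 and ** under 0.001. The L3W column holds 16 marked genes, 13 higher and 3 lower, the M1BP RNAi column 3 lower genes, and the colours of Rab3 and Rab9D rest on few reads.

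Rab3, the synaptic vesicle GTPase, was low and uneven. It had 230 and 90 counts in WT against 11 and 16 with ZKSCAN3, 26 and 2 under M1BP RNAi, and 2 and 10 with both, and in females 12 and 6 in L3F and 140 and 27 in L3W. These were 4.53 and 1.46 CPM in WT and at most 0.393 CPM in the other male libraries, so both WT libraries were above all other male libraries. None of these differences passed FDR 0.05 in edgeR (FDR 0.932 with ZKSCAN3, 0.122 under M1BP RNAi and 0.0838 with both, against WT), while DESeq2 on the pairs of groups called Rab3 lower at 0.001 with ZKSCAN3 and with both. The 10 neuronal markers summed to 429.8 and 432 CPM in WT, with 4 of 10 at 1 CPM or more, against 306 to 475 CPM and 3 to 5 of 10 in the other male libraries. Most of these sums was Syt1, at 279 and 273 CPM in WT against 141 to 357 CPM in the others. Syx1A was at 19.8 and 23.8 CPM in WT against 15.9 to 19.96 CPM in the others, and elav at 126 and 131 against 71.0 to 143 CPM. In WT the synaptic vesicle gene nSyb was at 0.0394 and 0.0649 CPM and brp, an active zone gene, at 0.0984 and 0.0325 CPM, against up to 0.159 and 0.442 CPM in the other male libraries. In L3W replicate 1, the library with 140 Rab3 counts, 9 of 10 neuronal markers were at 1 CPM or more, nSyb was at 4.83 CPM and VGlut at 2.41 CPM, against 4 of 10, 0.158 CPM and no VGlut counts in replicate 2. There brp, para, nrv3 and ChAT were also higher than in replicate 2. Lower in replicate 1 than in replicate 2 were elav (7.03 and 9.33 CPM), Syx1A (11.6 and 12.6) and cac (2.68 and 2.88), while Syt1 was nearly equal (529 and 525). The part of other cells in the Rab3 counts was not tested.

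Rab26 and Rab27, linked to synaptic vesicles and to granule secretion, were near the detection limit. Rab26 had 32 counts in L3W replicate 1 and 0 to 11 in the other 11 libraries. Rab27 had 38 and 21 counts in L3F and 65 and 71 in L3W, which is 0.570 and 0.301 CPM against 1.05 and 0.937 CPM (log2 1.19, edgeR FDR 0.133), and in males 21 and 2 counts in WT, 11 and 19 with ZKSCAN3, 14 and 10 under M1BP RNAi, and 10 and 3 with both. The female groups did not overlap. Rab23, a planar polarity gene, had 35 and 71 counts in L3F and 16 and 99 in L3W, with the highest and lowest female value in the same group, and in males 21 and 0 counts in WT, 10 and 10 with ZKSCAN3, 14 and 12 under M1BP RNAi, and 23 and 24 with both. RabX5 had 2 counts in WT replicate 1, 2 in L3W replicate 2 and 0 in the other 10 libraries.

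The X-linked Rab9-like copies (Rab9D, Rab9Db, Rab9E, Rab9Fa and Rab9Fb) and RabX2 had at most 29 counts in any library. In M1BP RNAi replicate 1 they had 24, 8, 29, 15, 8 and 6 counts, and in M1BP RNAi replicate 2 they had 14, 2, 0, 0, 0 and 1. In WT they had 0 counts in both libraries, except Rab9Db with 2 in replicate 1, and in female L3F replicate 2 they had 12, 2, 16, 4, 0 and 10. The libraries that held most of these reads were thus M1BP RNAi replicate 1 and L3F replicate 2, the libraries with 217 and 63.4 CPM of testis markers, and the part of those transcripts was not tested. Rab9D, the 1 gene of these with enough reads to be tested in males, did not pass in M1BP RNAi against WT (edgeR FDR 0.121). The copies resemble each other, only uniquely mapped reads were counted, and their single values are uncertain for that reason.

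The 56 regulators and effectors of Rab proteins (exchange factors, GTPase-activating proteins, the escort proteins Gdi and Rep, tethers and motors) were all found and tested. At L3W, 2 of the 56 were higher and 0 lower at FDR 0.001 in edgeR, against 4.27% and 3.52% of all genes. At FDR 0.05, 24 were higher and 3 lower, against 23.3% and 24.7% of all genes, with 33 at an unadjusted p under 0.05. With 1 female library left out, the median log2 fold change of the 56 ran from 0.44 to 0.53. Fewer regulators were called in these fits, as were fewer of all genes. DESeq2 called 18 higher and 1 lower at 0.001, beside 12.1% and 12.8% of all genes fitted. Rabex-5, an exchange factor for Rab5, had 11.9 and 10.9 CPM in L3F against 72.5 and 65.4 CPM in L3W (6.04-fold higher, edgeR FDR 0.000558). TBC1D5, known in mammals as a GTPase-activating protein for Rab7, had 64.4 and 58.2 CPM in L3F against 323 and 311 CPM in L3W (5.16-fold higher, edgeR FDR 0.000529). Their median was 0.46, against -0.01 over all genes.

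In males, edgeR called 0 regulators at FDR 0.001 in each comparison, against 0.0341% of all genes in M1BP RNAi against WT and 0% in the others. At an unadjusted p under 0.05 there were 12 under M1BP RNAi, 11 with both and 1 with ZKSCAN3 against WT, 7 in M1BP RNAi + ZKSCAN3 against M1BP RNAi and 4 in the interaction. Fitted on all libraries at 0.001, DESeq2 called 2 higher and 2 lower in M1BP RNAi, 1 higher and 1 lower in M1BP RNAi + ZKSCAN3 against WT, and 0 in the others, beside 2.53% and 3.39% of all genes fitted in M1BP RNAi and 2.55% and 2.46% in M1BP RNAi + ZKSCAN3. At FDR 0.05, sky, Evi5 and lt were higher and Rbpn-5 and ca lower in M1BP RNAi against WT, 3 and 2 of 56 against 3.93% and 4.29% of all genes. In M1BP RNAi + ZKSCAN3 against WT, sky was higher and Rbpn-5 lower, 1 and 1 of 56 against 3.23% and 3.02%. In M1BP RNAi the calls were lost without WT replicate 1, WT replicate 2 or M1BP RNAi replicate 1, and some were lost without M1BP RNAi replicate 2. In M1BP RNAi + ZKSCAN3 they were lost without WT replicate 1, WT replicate 2 or M1BP RNAi + ZKSCAN3 replicate 2. Calls over all genes fell too in these fits, except in the fit without M1BP RNAi replicate 2. The largest change called in M1BP RNAi was that of sky, a GTPase-activating protein for Rab35, with 23.3 and 22.3 CPM in WT, 27.0 and 23.7 with ZKSCAN3, 51.1 and 44.8 under M1BP RNAi, and 47.3 and 42.0 with both. Its log2 fold change was 1.07 in M1BP RNAi (edgeR FDR 0.0133) and 0.97 in M1BP RNAi + ZKSCAN3 (edgeR FDR 0.0171), and every male library with M1BP RNAi was above every male library without. Rbpn-5, the fly Rabaptin-5 and a Rab5 effector, had 18.6 and 19.2 CPM in WT and 10.3 and 7.97 in M1BP RNAi, 2.07-fold lower (edgeR FDR 0.0302), and was 2.15-fold lower in M1BP RNAi + ZKSCAN3 (edgeR FDR 0.0295). Evi5, a GTPase-activating protein for Rab11, rose 1.85-fold (edgeR FDR 0.0297), and lt, the Vps41 subunit of the HOPS tether that Rab7 recruits, rose 1.80-fold (edgeR FDR 0.0402). The gene ca, an exchange factor for Rab32 in pigment granules, was 1.44-fold lower (edgeR FDR 0.0489), and it was also lower at L3W, by 1.56-fold (edgeR FDR 0.00919). At L3W, sky and Evi5 were higher, 3.76-fold and 2.11-fold (edgeR FDR 0.00128 and 0.00257). Neither lt nor Rbpn-5 passed there (edgeR FDR 0.124 and 0.435).

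ZKSCAN3 peaks lay within 500 bp of the start of 24 of 33 Rab genes, against 46.9% of all genes of the count table, and ZKSCAN4 peaks at 17, against 30.6% of all genes. Among the 26 Rab genes tested in males the counts were 23 and 16, against 63.4% and 41.2% of all genes tested, and among the 7 not tested 1 gene, Rab26, had a peak of each factor. All 17 genes with a ZKSCAN4 peak also had a ZKSCAN3 peak. The share of such overlap over all genes was not computed, so it cannot be read as a trait of Rab genes. The 7 with a ZKSCAN3 peak alone were Rab18, Rab21, Rab23, Rab27, Rab39, Rab40 and RabX6. The 9 with neither were Rab3, RabX4, RabX5, RabX2 and the 5 Rab9-like copies. There is 1 list per factor from 2 replicates, so these counts have no replicate check, and the peaks are from S2 cells rather than the fat body. The lists held 8991 ZKSCAN3 and 8745 ZKSCAN4 peaks. For ZKSCAN3 this is the paper's number before it dropped regions that many transcription factors bind alike. Such regions were not removed here, so part of the peaks may not be specific to either factor.

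With at least 50% of the peak's length required inside the window, 13 and 7 Rab genes remained for ZKSCAN3 and ZKSCAN4, against 25.2% and 17.5% of all genes. At Rab7 the ZKSCAN3 peak (chr3R:23992421-23994287, score 118) and the ZKSCAN4 peak (chr3R:23991781-23994180, score 40.7) both span the start. At Rab9 the ZKSCAN3 peak (chr2L:19429715-19434277, score 126) and the ZKSCAN4 peak (chr2L:19432534-19434181, score 37.5) do so too, as do those of Rab32 and RabX1. At Rab4 the ZKSCAN4 peak ends before the start, and Rab39 has a ZKSCAN3 peak only. The highest score at a Rab gene was that of ZKSCAN4 at Rab8, 173, at the 99.3rd percentile of that list, and the highest of ZKSCAN3 was at Rab26, 150.8, at the 94.4th percentile. Both peaks at Rab26 end before its start and only reach into the window. The next ZKSCAN3 score, 150.6 at Rab5, belongs to a peak that spans the start. What the score measures is not given in the sources used here.

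**Figure D4:**
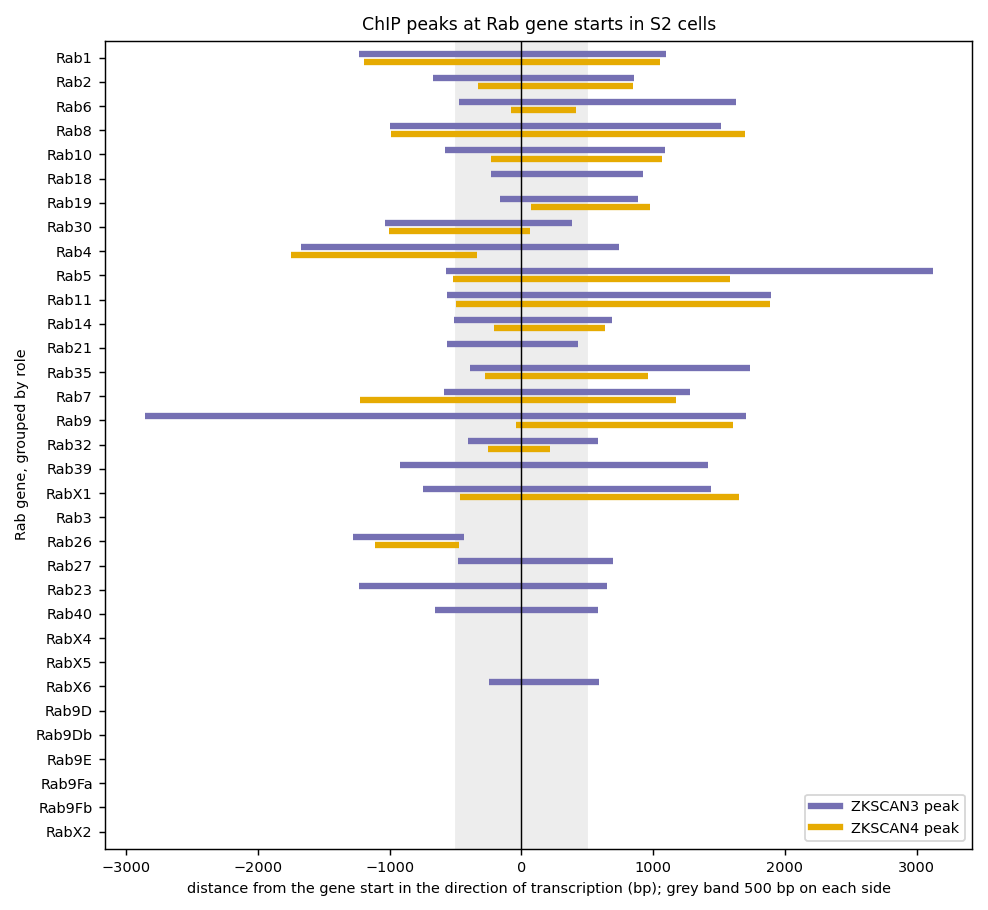
Extent of the ZKSCAN3 (violet) and ZKSCAN4 (yellow) peaks along the direction of transcription at the 33 Rab starts, in bp from the start, with a grey band of 500 bp on each side. Bars reach the band at 24 genes for ZKSCAN3 and 17 for ZKSCAN4, and the 9 rows without a bar are Rab3, RabX4, RabX5, RabX2 and the Rab9-like copies.

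Motif 1, the element M1BP binds, was searched by its 9-base core GGTCACACT on both strands in the window from 250 bases before to 50 after each RefSeq start (Release 6, the files' build), and 6.04% of 13961 protein-coding genes hold it. Among the 33 Rab genes 1 did, Rab14, which holds it at -26 and at 3, counted with the start as 1 and the base before it as -1, in both cases on the strand opposite to the gene. Its window (chr2L:14354895-14355194, plus strand) is shown for these sites, with the core in capitals as AGTGTGACC.
Rab14: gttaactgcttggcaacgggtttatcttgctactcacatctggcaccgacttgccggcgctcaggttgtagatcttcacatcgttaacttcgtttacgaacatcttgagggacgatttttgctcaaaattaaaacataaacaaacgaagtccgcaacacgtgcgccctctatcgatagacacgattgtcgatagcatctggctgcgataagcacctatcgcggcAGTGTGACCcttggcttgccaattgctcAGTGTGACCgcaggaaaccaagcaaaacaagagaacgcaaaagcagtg

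With 1 mismatch allowed, 6 Rab genes held the core, against 15.5% of all. A near match on the gene's strand begins at -10 in Rab6 (chr2L:12109098-12109146, minus strand), and on the opposite strand at -106 in Rab5 (chr2L:2365351-2365399, minus strand). Both are printed to show how close they come, with the 9 letters in capitals.
Rab6: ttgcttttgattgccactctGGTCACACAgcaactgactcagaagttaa
Rab5: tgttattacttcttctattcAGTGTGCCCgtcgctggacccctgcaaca

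None of the genes that changed in males (Rab9, RabX1, Rab4 and Rab39) holds the exact core in this window, and Rab4 holds a near match at -20. No match says only that these letters are absent from the window. Rab14 had 14.2 and 15.6 CPM in WT and 17.7 and 18.4 CPM in M1BP RNAi (log2 0.28, SE 0.17, edgeR FDR 0.304), so the gene with 2 copies of the core did not pass in the knockdown.

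After the promoters had been read, a further element common at Drosophila housekeeping promoters was searched, the core of the DNA replication-related element, TATCGATA, which reads the same on both strands. It stood in the windows of 11 of 33 Rab genes (Rab2, Rab6, Rab7, Rab8, Rab14, Rab19, Rab27, Rab30, Rab35, Rab40 and RabX6), against 9.36% of all protein-coding genes. As the element was chosen after the sequences had been seen, this count is a description. All 11 genes were among those tested in males, while the 9.36% also covers genes with too few reads to be tested. The share among tested genes was not computed, so an excess particular to Rab genes was not tested. The window of Rab7 (chr3R:23992758-23993057, plus strand) is printed because Rab7 rose most at L3W among the called genes, with the element, which begins at -17, in capitals.
Rab7: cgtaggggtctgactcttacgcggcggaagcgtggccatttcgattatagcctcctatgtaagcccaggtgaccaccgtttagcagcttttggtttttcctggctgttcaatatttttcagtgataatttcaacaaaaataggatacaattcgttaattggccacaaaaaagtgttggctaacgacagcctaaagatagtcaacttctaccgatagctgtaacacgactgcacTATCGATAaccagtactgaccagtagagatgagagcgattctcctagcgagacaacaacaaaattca

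Of the 11 genes with TATCGATA, Rab7, Rab8, Rab14, Rab19, Rab35, Rab2 and RabX6 rose at L3W at FDR 0.05, 7 of 11, and Rab6, Rab27, Rab30 and Rab40 did not pass. Of the 14 tested genes without it, 6 rose (Rab4, Rab5, Rab11, Rab18, Rab32 and RabX4) and 3 fell (Rab9, RabX1 and Rab39). Over all genes tested, 23.3% were called higher and 24.7% lower. This split was read after both sets of values had been seen and was not tested.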

How the data were processed

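RNA-seq was measured in larval fat bodies of 6 groups (2 libraries each) and ChIP-seq in S2-DRSC cells. The deposited counts were made by the authors with featureCounts 1.6.1 on FlyBase 6.19 exons, from reads mapped uniquely to dm6, unstranded and with reads that overlap more than 1 gene assigned to all of them. The peak score was deposited with lists the authors called with MACS2, 1 list per factor from 2 replicates. Exon lengths for TPM were those of the deposited tables. Tables of the authors' own fold changes and p-values were not used.

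Counts were tested with edgeR 4.0.16 in R 4.3.3 (TMM, filterByExpr, quasi-likelihood test, Benjamini-Hochberg over all genes, FDR 0.001, with 0.05 beside it), males and females apart, 11723 and 10720 genes. TPM was computed from counts and lengths. The dispersion common to all genes, as a biological coefficient of variation, was 0.462 (males) and 0.351 (females). DESeq2 1.42.0 and the settings of the closing section were alternatives, and the fit was tested on simulated data. Gene starts were the 5'-most of the count table, and 99.3% of 17358 genes had the same start and end in the Ensembl annotation used for every annotated start. Promoter sequences and gene starts of the motif search came from RefSeq.

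The Rab genes, regulator list and marker lists were chosen with earlier results of these data known. Values per library are given for Rab genes called at FDR 0.001 in any comparison, those with FDR under 0.05 in a male comparison, the 3 highest by TPM, and those detected in some libraries of a table only. Regulators are named where they pass FDR 0.05 in males or are among the 5 largest calls at FDR 0.001 in L3W. Groups came from titles and descriptions.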

Additional observations from a re-analysis of the deposited data

How the results depend on the processing

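Counts of called Rab genes depended on the test and threshold. At FDR 0.001 in M1BP RNAi against WT the count went from 0 to 3 with DESeq2, on all libraries or on the pair of groups, and to 3 at FDR 0.05. In ZKSCAN3 against WT it went from 0 to 1 with DESeq2 on the pair. In M1BP RNAi + ZKSCAN3 against WT it went from 0 to 2 and 1 with these DESeq2 fits and to 1 at FDR 0.05. In L3W against L3F it went from 2 to 13 with DESeq2, to 1 with DESeq2 size factors and to 16 at FDR 0.05. It fell with any library left out, where calls over all genes fell too. In the male comparisons the leave-one-out fits added no Rab call at FDR 0.001, and next to none over all genes. Regulators called at L3W went from 2 to 19 with DESeq2 and 5 without the filter (alternatives chosen after seeing the data), and fell with any library left out. The cause was not tested.

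The medians of the Rab genes, with 1 library left out, ran from 0.56 to 0.65 in L3W, from -0.10 to 0.05 in ZKSCAN3, from -0.11 to 0.066 in M1BP RNAi, from -0.32 to -0.14 in M1BP RNAi + ZKSCAN3, each against WT, from -0.37 to -0.11 in M1BP RNAi + ZKSCAN3 against M1BP RNAi, and from -0.34 to -0.14 in the interaction. In L3W the median was 0.49 with DESeq2 and 0.48 without the filter, where more genes enter. On the ratio of mean TPM, added after seeing the data, it was 0.80 in L3W, and against WT 0.46 in M1BP RNAi and 0.22 with ZKSCAN3 added.

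Requiring at least 50% of the peak's length inside the window left 13 and 7 Rab genes for ZKSCAN3 and ZKSCAN4. Motif 1 was in 6 Rab windows with 1 mismatch, in 0 on the gene's own strand, and TATCGATA, added after seeing the data, in 11.

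No label ties the replicate numbers to a shared batch, and same-numbered deviations correlated at -0.22 to 0.45 over the pairs of male groups (0.45 for WT and M1BP RNAi, 0.12 and 0.21 for these with M1BP RNAi + ZKSCAN3, and -0.08, -0.22 and 0.13 for ZKSCAN3 with the others) and at -0.09 in females. The numbers were therefore not treated as pairs. With the replicate block, Rab genes lower at FDR 0.05 in M1BP RNAi against WT went from 3 to 4, while all genes lower went from 503 to 893 of 11723. At FDR 0.001 this fit called 0 of all genes in every comparison, and so 0 Rab genes and 0 regulators. At L3W, 11 Rab genes were higher and 2 lower at FDR 0.05, against 1908 and 2065 of all 10720 genes.

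Among the alternatives for single genes, 142 kept their direction and side of FDR 0.05, 54 lost the call, 2 gained it and none turned direction. Fits with 1 library left out are among these alternatives, and calls over all genes fell in most of those fits. Values under 1 CPM are limited by depth.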
